A study of Mus musculus with 5 samples.

Results

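The genes described here are those of the synaptic vesicle and its release machinery, with the adhesion and scaffold proteins of the synapse, on dual-colour arrays of mouse retina. Members were taken by gene symbol alone, as every spot whose single symbol belongs to the synaptotagmins, synapsins, synaptophysins, SV2 proteins, SNARE proteins and their regulators, complexins, Rab3 proteins, active zone proteins, vesicular glutamate transporters, neurexins, neuroligins, postsynaptic scaffolds or the Camk2 kinase family. Of the 17328 spots on each array, 90 belonged to 59 such genes, 43 of the vesicle and release side and 16 of the adhesion and postsynaptic side. The symbol patterns also took in Rab34, Rab39b and Rab3ip, Snap47, Camk2n2 and Snap91, whose product AP180 is a clathrin adaptor and no SNARE. The sides were set by symbol too. All of these but Camk2n2 count on the vesicle and release side, as do the SNAREs of endosomes and the Golgi. A ratio on at least 4 of the 5 arrays was available for 71 of the 90 spots, covering 54 genes, and these 71 are called probes below.

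Each of the 5 arrays carried RNA of wild-type mice in channel 1 and of Rb-mutant mice, labelled Rb knockout, in channel 2, and the title of the series speaks of retinal explants. Rb is the retinoblastoma protein, which restrains entry into the cell cycle. The age, strain, allele, the promoter behind any Cre, and whether RNA came from pooled or separate animals are not stated, so every p-value measures the spread between arrays, which may be technical. The dye of each RNA is not given in the sources used here either. A positive or negative log2 ratio is therefore written as deposited, and no sign is assigned to the mutant or the wild type.

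A nerve terminal stores transmitter in vesicles whose membrane carries synaptophysin, SV2 and a transporter that fills them. The vesicle SNARE synaptobrevin pairs with the plasma membrane SNAREs syntaxin and SNAP-25 to fuse the membranes, Munc13 prepares that complex, complexin holds it and synaptotagmin responds to calcium. Photoreceptors and bipolar cells of the retina release glutamate at ribbon synapses, which use syntaxin 3 and complexins 3 and 4 where other synapses use syntaxin 1 and complexins 1 and 2.

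Promoter windows are shown for 5 members. Sv2b, Stx3, Syp and Slc17a7 are 4 of 13 genes with a probe below -1 in log2 ratio on both arrays 1 and 3. That limit does not itself single out these 4. Sypl was positive on all 5 arrays. Each window runs from 250 bases before to 50 after the annotated start, as given by RefSeq on GRCm38.p6, and is written 5′ to 3′ on the strand of the gene. Capitals mark TAATCC, the core read by the homeodomain factors CRX and OTX2 of photoreceptors, and GGGCGG, the GC box, on either strand. Sv2b, with 4 annotated windows, is shown at chr7:75309213-75309512 on the minus strand, Stx3 at chr19:11819354-11819653 on the minus strand, Syp at chrX:7638330-7638629, Slc17a7 at chr7:45163671-45163970 and Sypl, with 2 windows, at chr12:32953695-32953994, the last 3 on the plus strand.
Sv2b: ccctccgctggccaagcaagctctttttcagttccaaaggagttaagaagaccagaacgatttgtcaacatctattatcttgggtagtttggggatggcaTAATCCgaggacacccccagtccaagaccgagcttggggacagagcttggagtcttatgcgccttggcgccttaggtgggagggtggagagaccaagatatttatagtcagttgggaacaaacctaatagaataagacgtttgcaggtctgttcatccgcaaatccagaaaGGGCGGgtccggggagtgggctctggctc
Stx3: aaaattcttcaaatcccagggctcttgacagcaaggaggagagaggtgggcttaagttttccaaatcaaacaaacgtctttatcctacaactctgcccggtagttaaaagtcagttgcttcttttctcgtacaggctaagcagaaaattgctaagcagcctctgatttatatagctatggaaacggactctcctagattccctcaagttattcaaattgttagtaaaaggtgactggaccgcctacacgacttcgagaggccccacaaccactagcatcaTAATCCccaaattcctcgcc
Syp: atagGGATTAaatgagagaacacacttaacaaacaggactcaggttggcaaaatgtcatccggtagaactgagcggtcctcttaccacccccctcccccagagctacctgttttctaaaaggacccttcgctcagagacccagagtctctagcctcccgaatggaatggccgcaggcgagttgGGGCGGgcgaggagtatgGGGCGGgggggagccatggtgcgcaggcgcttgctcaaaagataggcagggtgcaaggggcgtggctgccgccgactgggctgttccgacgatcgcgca
Slc17a7: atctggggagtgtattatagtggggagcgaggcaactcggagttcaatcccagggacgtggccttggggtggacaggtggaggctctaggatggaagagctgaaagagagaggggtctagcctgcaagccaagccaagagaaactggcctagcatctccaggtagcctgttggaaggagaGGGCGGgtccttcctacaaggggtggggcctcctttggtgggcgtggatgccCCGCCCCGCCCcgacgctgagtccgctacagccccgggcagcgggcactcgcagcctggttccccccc
Sypl: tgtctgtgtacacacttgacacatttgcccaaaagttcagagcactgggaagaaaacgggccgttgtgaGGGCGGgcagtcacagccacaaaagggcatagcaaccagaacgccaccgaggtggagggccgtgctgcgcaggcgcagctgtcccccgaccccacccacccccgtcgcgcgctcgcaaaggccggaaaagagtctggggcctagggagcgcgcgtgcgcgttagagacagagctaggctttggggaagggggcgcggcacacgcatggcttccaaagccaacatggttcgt

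The windows shown of Sv2b, Stx3 and Syp each held 1 TAATCC, and those of Slc17a7 and Sypl held none. Among the Sv2b windows not shown, that starting at chr7:75302560 held 1, and those starting at chr7:75308337 and chr7:75219970 held none. Windows were found for 44 of the 54 tested genes, 68 windows in all, and 6 of them (8.82%) held TAATCC, against 7.06% of all 32851 windows. Among the 12 genes with windows that were below -1 on arrays 1 and 3, TAATCC stood in 4 of 17 windows, which belonged to Sv2b, Stx3 and Syp. All 3 of these genes are among those shown, so the windows shown do not stand for the 12 genes. The window of Cplx2, also below -1 on both arrays and not shown, held neither TAATCC nor the GC box. The GC box stood in 55.9% of member windows against 35.7% of all. The E-box CACGTG stood in 13.2% against 7.15% and the cyclic AMP element TGACGTCA in 1.47% against 1.79%. The 2 parts of the RE1 element bound by the neuronal repressor REST stood in few windows. TTCAGCACC was in 2 of the 68 (2.94%) against 0.371% of all, and GGACAGCGC in 1 (1.47%) against 0.405%. Shares from so few windows are not read. All were counted on both strands, matches may overlap one another, and a match is a description of the letters only.

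No member passed the test, and most leaned to the negative side. Of the 71 probes 58 (81.7%) had a mean log2 ratio below 0, against 60.4% of all 10036 tested probes and 65.6% of the other probes with a single symbol. By gene, 45 of 54 had a mean below 0. The median of the members' means was -0.49, against -0.16 over all tested probes, so that it lay 0.33 below them. At an adjusted p under 0.05 limma called 0 of 71 members and 0% of all probes, with a smallest adjusted p of 0.409 among members and 0.260 overall. At an unadjusted limma p under 0.05, 8 members (11.3%) were negative and 2 (2.82%) positive, against 5.90% and 5.52% of all tested probes. The 8 were Cplx2, Syt11, Rab34, Syt1, Cplx3, Stx8, Syp and Camk2n2, and the 2 were Sypl and Vamp3.

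The lean was carried unequally by the arrays. Relative to the median of all tested probes on the same array, the median of the members lay at -0.60, 0.07, -0.56, -0.30 and -0.10 on arrays 1 to 5, averaging -0.30 ± 0.29 (SD, n = 5). Arrays 1 and 3 were low, array 4 followed, and arrays 2 and 5 lay near the other probes. Without arrays 1 and 3 the share of members with a mean below 0 was 64.8% against 56.6% of all, and 2 members (2.82%) were negative at an unadjusted limma p under 0.05, against 4.28% of all. Leaving out array 1, 2, 3, 4 or 5 alone left 4, 9, 2, 3 and 5 members so (5.63%, 12.7%, 2.82%, 4.23% and 7.04%), against 3.63%, 5.58%, 3.90%, 4.43% and 4.37% of all probes. The members' share was below that of all probes without array 3, without array 4 and without arrays 1 and 3. Arrays 1 and 3 had the widest ratios, with a scaled median absolute deviation of 0.97 on each against 0.48 to 0.63 on the others. After scaling to a common spread the members lay at -0.45, 0.11, -0.41, -0.38 and -0.11. Arrays 1, 2 and 3 were scanned at one focus position and arrays 4 and 5 at another, and the median of the means lay 0.34 below all probes in the first set and 0.25 in the second.

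**Figure D1:**
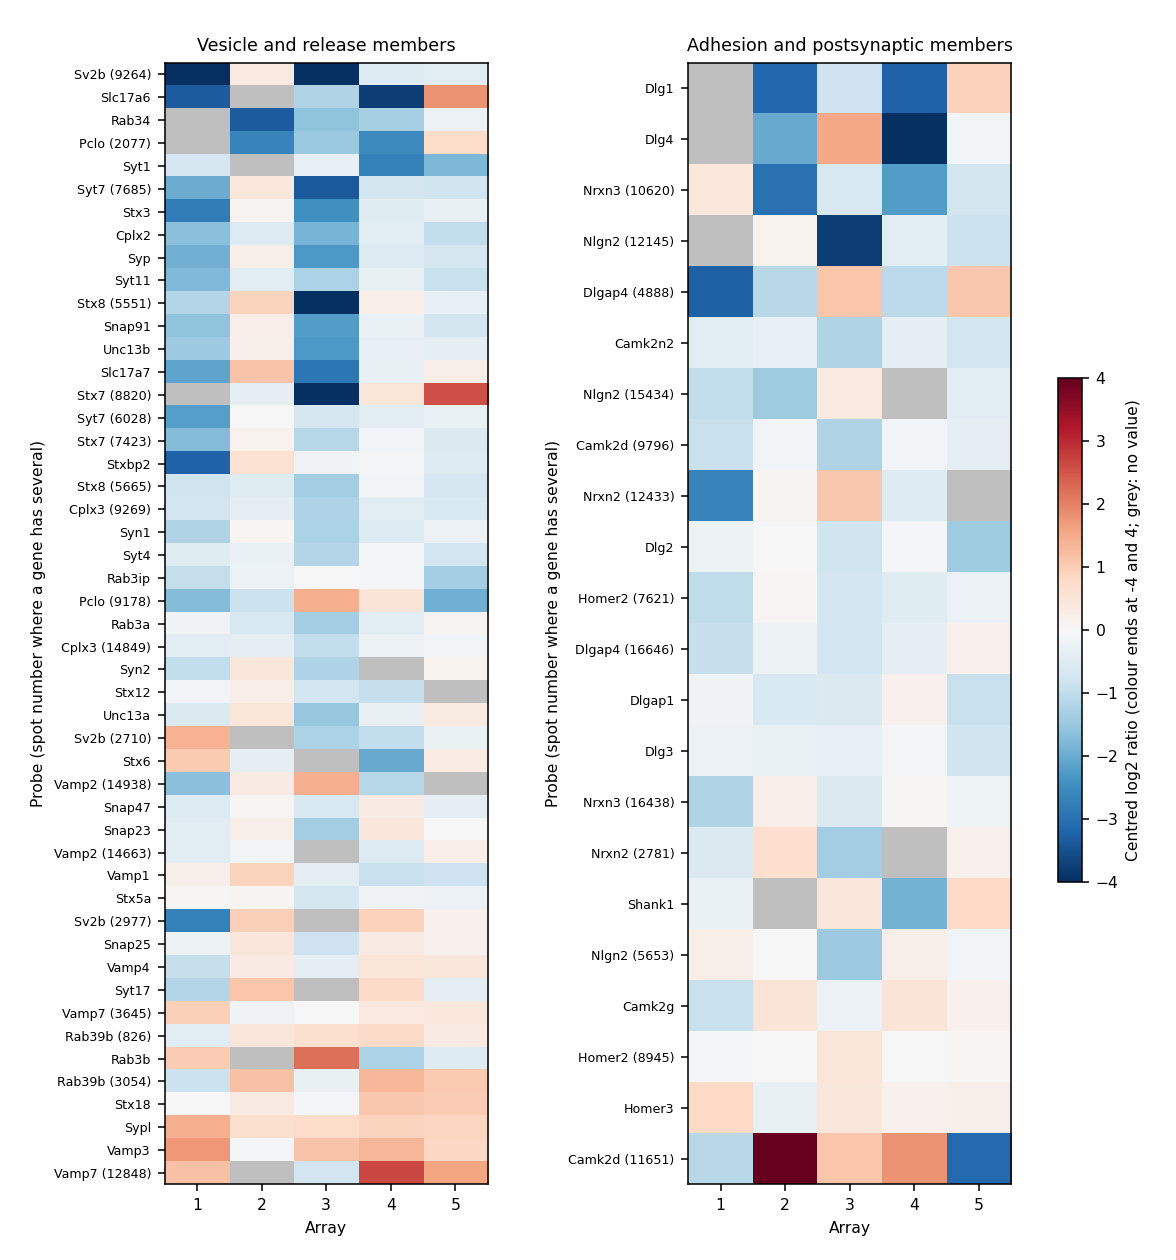
Centred log2 ratio of each of the 71 member probes (rows, ordered by mean) on each of the 5 arrays (columns), with the vesicle and release members on the left and the adhesion and postsynaptic members on the right. Blue is negative and red positive as deposited, grey has no value, and colours end at -4 and 4. Columns 1 and 3 are the bluest on the left, and 40 of the 49 vesicle and release probes and 18 of the 22 others have a mean below 0.

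The vesicle and release side and the adhesion and postsynaptic side had nearly the same share of negative means but not the same size on arrays 1 and 3. The 49 vesicle and release probes lay at -0.63, 0.18, -0.94, -0.30 and -0.12 relative to all probes on arrays 1 to 5. The 22 adhesion and postsynaptic probes lay at -0.36, -0.09, -0.37, -0.25 and -0.06. The difference between these medians was not tested. A log2 ratio below -1, a 2-fold difference, on both arrays 1 and 3 was seen for 13 of 42 vesicle and release probes with values on both (31.0%), for 0 of 19 adhesion and postsynaptic probes, and for 9.08% of all tested probes. This limit was chosen after the values were seen. The 13 were Cplx2, Slc17a6, Slc17a7, Snap91, Stx3, Syn1, Syp, Syt11, Unc13b and a probe each of Stx7, Stx8, Sv2b and Syt7. On array 2 the 12 of them with a value lay between -0.54 and 1.13 and 2 were below 0. On array 4, 12 of the 13 were below 0, with a median of -0.41 and a range from -3.77 to 0.27, and on array 5, 11 were, with a median of -0.43 and a range from -0.99 to 1.79. The median of all tested probes was -0.02, 0.02 and -0.13 on arrays 2, 4 and 5, so many of all probes were below 0 there too.

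**Figure D2:**
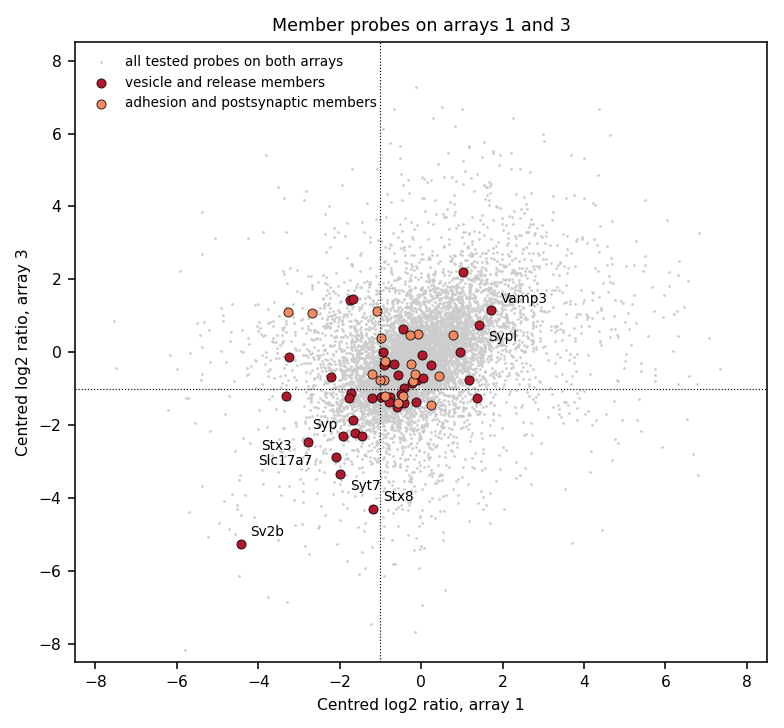
Centred log2 ratio on array 1 (horizontal) against array 3 (vertical) for all tested probes measured on both (grey), with member probes in red and orange and dotted lines at -1. The 13 members below both lines are all on the vesicle and release side (red), which is set by symbol and includes Stx7, Stx8 and Snap91. Sv2b lies lowest at -4.44 and -5.26, and Sypl and Vamp3 lie in the upper right.

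Among the proteins of the vesicle membrane, all 8 probes of the SV2, synaptophysin, synapsin and glutamate transporter genes had means below 0, while 0 of the 6 measured on array 2 lay below 0. SV2B, a vesicle glycoprotein, gave the most negative member. On arrays 1 to 5 the ratio of its probe at spot 9264 was -4.44, 0.40, -5.26, -0.53 and -0.43. Arrays 1 and 3 stood far below the other 3, and the mean of -2.05 ± 2.59 (SD, n = 5; limma adjusted p = 0.442) was smaller than the spread. The other 2 Sv2b probes had means nearer to 0, with 1.38, -1.26, -0.98 and -0.26 at spot 2710, which has no value on array 2, and -2.70, 0.97, 0.91 and 0.16 at spot 2977, which has none on array 3. On none of the 3 arrays that all 3 probes share did they have the same sign.

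Slc17a7 encodes VGLUT1, the glutamate transporter of photoreceptor and bipolar cell vesicles. Its ratios were -2.10, 1.13, -2.89, -0.28 and 0.22, so it was negative on arrays 1 and 3 and positive on array 2, with a mean of -0.79 ± 1.66 (SD, n = 5; limma adjusted p = 0.579). Leaving out 1 array moved that mean between -1.26, without array 2, and -0.26, without array 3. Slc17a6 encodes VGLUT2, the transporter of ganglion cells, and had -3.33, -1.22, -3.77 and 1.79 on arrays 1, 3, 4 and 5 (mean -1.63 ± 2.54, SD, n = 4). Here array 4 was as low as array 1 and array 5 was positive.

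Synaptophysin, the abundant vesicle membrane protein encoded by Syp, had ratios of -1.92, 0.22, -2.31, -0.56 and -0.66. It was negative on 4 arrays, with a mean of -1.05 ± 1.04 (SD, n = 5; limma adjusted p = 0.435). The synapsins tether vesicles to the cytoskeleton, and Syn1 had -1.20, 0.09, -1.27, -0.54 and -0.25 (mean -0.63 ± 0.59, SD, n = 5). Syn2 had -0.98, 0.45, -1.22 and 0.13 on arrays 1, 2, 3 and 5. Sypl, a synaptophysin relative found in many cell types, went the other way, with 1.42, 0.65, 0.74, 0.89 and 0.87. Its mean of 0.91 ± 0.30 (SD, n = 5; limma adjusted p = 0.409) exceeded its spread, and its sign was the same under every alternative tried. Leaving out or weighting arrays could not have turned a probe that was positive on all 5. Sypl and Stx18 were the 2 of 49 members measured on all arrays (4.08%) that lay above the median of all probes on every array, against 6.12% of all probes.

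The SNARE proteins were mixed. Stx3, the syntaxin of ribbon synapses, had -2.78, 0.11, -2.47, -0.49 and -0.31, again low on arrays 1 and 3 (mean -1.19 ± 1.34, SD, n = 5; limma adjusted p = 0.437). Snap25, the plasma membrane SNARE of neurons, had -0.22, 0.46, -0.84, 0.32 and 0.19. Those values lay on both sides of 0, with a mean of -0.02 ± 0.52 (SD, n = 5), whose sign turned under several alternatives. Its broadly expressed relative Snap23 had -0.42, 0.23, -1.39, 0.44 and 0.03. Snap47, a further relative, had a mean of -0.24.

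The vesicle SNAREs Vamp1 and Vamp2 lay on both sides of 0. Vamp1 had 0.24, 0.89, -0.37, -0.89 and -0.83, lowest on arrays 4 and 5. Vamp2, the synaptobrevin of most synapses, had -0.46, -0.10, -0.53 and 0.26 on arrays 1, 2, 4 and 5 at spot 14663, and its other probe had -1.68, 0.34, 1.46 and -1.14 on arrays 1 to 4. Vamp3, or cellubrevin, of recycling endosomes had 1.72, -0.03, 1.15, 1.31 and 0.84. It was positive on 4 arrays and close to 0 on array 2 (mean 1.00 ± 0.66, SD, n = 5; limma adjusted p = 0.432). Another Vamp3 spot, on 3 arrays only and therefore not tested, was negative on each, with -1.50, -0.54 and -0.74 on arrays 2, 3 and 5. Vamp7, of late endosomes and lysosomes, had 0.94, -0.14, 0.02, 0.39 and 0.43 at one probe and 1.17, -0.77, 2.66 and 1.57 on arrays 1, 3, 4 and 5 at the other. Vamp4, of the trans-Golgi network, had -0.91, 0.32, -0.37, 0.49 and 0.46, on both sides of 0.

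Other syntaxins serve endosomes, the Golgi and the endoplasmic reticulum. Of the endosomal ones, Stx8 had -0.80, -0.48, -1.38, -0.10 and -0.66 at spot 5665 and -1.18, 0.90, -4.30, 0.27 and -0.32 at spot 5551. The first probe was negative on all 5 arrays and the second on 3. Stx7 had -1.72, 0.13, -1.13, -0.12 and -0.59 at spot 7423 and -0.38, -5.61, 0.48 and 2.57 on arrays 2 to 5 at spot 8820, and the sign of the second probe's mean turned without array 3. Stx5a, Stx6 and Stx12 had means of -0.18, -0.26 and -0.38. Stx18, of the endoplasmic reticulum, had 0.02, 0.34, -0.07, 1.09 and 1.00 (mean 0.48 ± 0.54, SD, n = 5). Stxbp2, a Munc18 protein that binds syntaxin, had -3.25 on array 1 and between -0.56 and 0.60 on the others.

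Of the calcium sensors, the 6 synaptotagmin probes had 5 means below 0. Syt1, the sensor of fast release, had -0.67, -0.32, -2.71 and -1.79 on arrays 1, 3, 4 and 5 (mean -1.37 ± 1.09, SD, n = 4; limma adjusted p = 0.432). It was lowest on arrays 4 and 5. Syt7, a sensor of slower release, had -1.99, 0.43, -3.36, -0.72 and -0.79 at spot 7685 and -2.22, -0.01, -0.67, -0.44 and -0.28 at spot 6028, and both probes were negative on arrays 1, 3, 4 and 5. A further Syt7 spot, on 2 arrays only and therefore not tested, had -3.145 on array 2 and 0.66 on array 4. There it differed in sign from the probe at spot 7685. Syt11, a synaptotagmin that does not bind calcium, had -1.78, -0.46, -1.25, -0.29 and -0.88 (mean -0.93 ± 0.60, SD, n = 5; limma adjusted p = 0.432) and was negative on every array. Syt4 had -0.49, -0.27, -1.16, -0.05 and -0.77, also negative on each. Syt17 had a mean of 0.08.

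The complexins, which clamp and assist the SNARE complex, were negative on every array at all 3 probes. Cplx2 had -1.67, -0.54, -1.87, -0.41 and -0.99 (mean -1.09 ± 0.66, SD, n = 5; limma adjusted p = 0.411). Cplx3, the complexin of ribbon synapses, had -0.76, -0.39, -1.24, -0.42 and -0.60 at spot 9269 and -0.43, -0.36, -0.99, -0.25 and -0.10 at spot 14849. The first had a mean of -0.68 ± 0.34 and the second of -0.43 ± 0.34 (SD, n = 5 each), and their signs matched on all 5 arrays. For Cplx2, Cplx3, Syt11 and Sypl, each of one sign on all 5 arrays, the exact two-sided sign-flip permutation p was the smallest that 5 arrays allow, which is above 0.05. Below the median of all tested probes on every array lay 8 of 49 members (16.3%), namely Cplx2, Syt11, Stx8, Cplx3, Camk2n2, Syt4, Camk2d and Dlg3 with 1 probe each, against 9.27% of all probes.

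Priming and active zone genes were mostly negative. Unc13b, or Munc13-2, had -1.45, 0.19, -2.30, -0.32 and -0.37 (mean -0.85 ± 1.01, SD, n = 5; limma adjusted p = 0.453), and Unc13a, or Munc13-1, had -0.59, 0.49, -1.52, -0.31 and 0.36. Both were lowest on arrays 1 and 3. Pclo, the scaffold piccolo, had -2.68, -1.48, -2.55 and 0.74 on arrays 2 to 5 at spot 2077 and -1.75, -0.85, 1.44, 0.51 and -1.91 at spot 9178. Its probes had the same sign on 1 of the 4 arrays they share. Rab3a, the vesicle GTPase, had -0.13, -0.63, -1.38, -0.43 and 0.10 (mean -0.49 ± 0.57, SD, n = 5). Its relative Rab3b had 1.03, 2.20, -1.28 and -0.53 on arrays 1, 3, 4 and 5, without a value on array 2. Another Rab3b spot, on 3 arrays only and therefore not tested, was positive on each. It had 0.78, 1.06 and 3.91 on arrays 3, 4 and 5, so the spots differed in sign on arrays 4 and 5. Snap91, the clathrin adaptor AP180, had -1.62, 0.28, -2.23, -0.28 and -0.75.

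The Rab proteins taken in by their symbols served other routes. Rab34 had -3.32, -1.62, -1.32 and -0.23 on arrays 2 to 5 and was negative on each (mean -1.63 ± 1.28, SD, n = 4; limma adjusted p = 0.432). Another Rab34 spot, on 3 arrays only and therefore not tested, had -0.10, -2.04 and 1.33 on arrays 1, 4 and 5. The spots thus differed in sign on array 5. Rab3ip, an exchange factor for Rab8, had a mean of -0.53. Rab39b had -0.46, 0.44, 0.63, 0.75 and 0.32 at spot 826 and -0.87, 1.18, -0.31, 1.33 and 1.05 at spot 3054. Both probes had means above 0, at 0.34 and 0.48, and both were negative on array 1.

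Neurexins are presynaptic adhesion receptors. Nrxn3 had 0.43, -2.98, -0.64, -2.25 and -0.73 at spot 10620, lowest on arrays 2 and 4, and -1.21, 0.27, -0.59, 0.04 and -0.19 at spot 16438. The Nrxn2 probe at spot 2781 had -0.57, 0.66, -1.39 and 0.17, without a value on array 4, and the one at spot 12433 had -2.67, 0.11, 1.07 and -0.53, without a value on array 5. All 4 neurexin means were below 0, and each pair of probes disagreed in sign on some arrays. Nlgn2, the neuroligin of inhibitory synapses, had 0.16, -3.77, -0.45 and -0.86 on arrays 2 to 5 at spot 12145 (mean -1.23). At spot 15434 it had -0.99, -1.42, 0.39 and -0.43, without a value on array 4 (mean -0.61), and at spot 5653 it had 0.25, 0.01, -1.46, 0.24 and -0.11 (mean -0.22). The 3 probes had the same sign on 1 of the 3 arrays they share.

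Postsynaptic scaffolds followed no single order of arrays. Dlg4, or PSD-95, which is also found in photoreceptor terminals, had -2.03, 1.54, -5.11 and -0.11 on arrays 2 to 5 and a mean of -1.43 ± 2.86 (SD, n = 4), which was -0.20 without array 4 and -2.42 without array 3. Dlg1, or SAP97, had -3.15, -0.84, -3.25 and 0.92 on the same arrays. Both were lowest on arrays 2 and 4. Dlg3, or SAP102, had -0.25, -0.26, -0.33, -0.08 and -0.81, small and negative on each array, and Dlg2, or PSD-93, a mean of -0.49. The Dlgap proteins bind these scaffolds. Dlgap4 had -3.28, -1.09, 1.10, -1.05 and 1.07 at spot 4888 and -0.92, -0.20, -0.76, -0.36 and 0.17 at spot 16646, and Dlgap1 had a mean of -0.41. The first Dlgap4 probe lay far on both sides of 0 and the second was negative on 4 arrays.

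Shank and Homer proteins link the scaffold to receptors. Shank1 had -0.28, 0.46, -1.89 and 0.80, without a value on array 2 (mean -0.22). Homer2 had -1.01, 0.05, -0.77, -0.50 and -0.23 at spot 7621 and -0.08, -0.01, 0.49, -0.01 and 0.08 at spot 8945, with means of -0.49 and 0.09. Its second probe stayed near 0 except on array 3. Homer3 had 0.79, -0.29, 0.46, 0.18 and 0.20 and was positive on 4 arrays (mean 0.27 ± 0.40, SD, n = 5).

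The calcium and calmodulin dependent kinase family split by probe. Camk2d had -0.89, -0.11, -1.21, -0.10 and -0.41 at spot 9796 and -1.10, 3.98, 1.12, 1.79 and -3.12 at spot 11651. The first was negative on every array and the second lay far on both sides of 0, so their means of -0.54 and 0.53 had opposite signs. Camk2g had a mean of 0.02. Camk2n2, an inhibitor of the kinase, had -0.46, -0.31, -1.20, -0.37 and -0.75 and was negative on every array (mean -0.62 ± 0.37, SD, n = 5; limma adjusted p = 0.435).

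Probes of one gene often differed. Of the 15 genes with more than 1 tested probe, 32 probes in all, 13 had probe means of the same sign, and Camk2d and Homer2 did not. Probe sequences were not used here, so whether RNA of one paralogue reached the spot of another was not tested. The 19 spots left out had values on 3 arrays (12 spots), 2 arrays (6) or 1 array (1). Just outside the limit, the second Stx3 spot had 0.42, 0.31 and 0.81 on arrays 1, 3 and 4 against negative values of the tested probe there, and the second Slc17a7 spot had -3.98, 1.04 and -1.27 on arrays 2, 3 and 4. Just inside it stood 22 probes on 4 arrays, among them Syt1, Slc17a6, Dlg4 and Vamp2. Camk2b, Rims2, Stx11, Sv2a and Syt3 had no tested probe and are not described further.

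Related genes of the same function could be set side by side on each array, as differences of centred log2 ratios. The 6 pairs were chosen after their values were seen and are given as a description. Sypl lay above Syp by 3.33, 0.43, 3.05, 1.45 and 1.53 across arrays 1 to 5, averaging 1.96 ± 1.21 (SD, n = 5), larger than its spread. Cplx3 lay above Cplx2 on all 5 arrays by a mean of 0.54 ± 0.42, and Unc13b below Unc13a on all 5 by a mean difference of -0.54 ± 0.37. Vamp3 lay above Vamp1 on 4 arrays (1.19 ± 1.22) and above Vamp2 on 3 (1.01 ± 1.39), and Snap23 differed from Snap25 by -0.21 ± 0.24. These 3 mean differences were no larger than their spread.

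**Figure D3:**
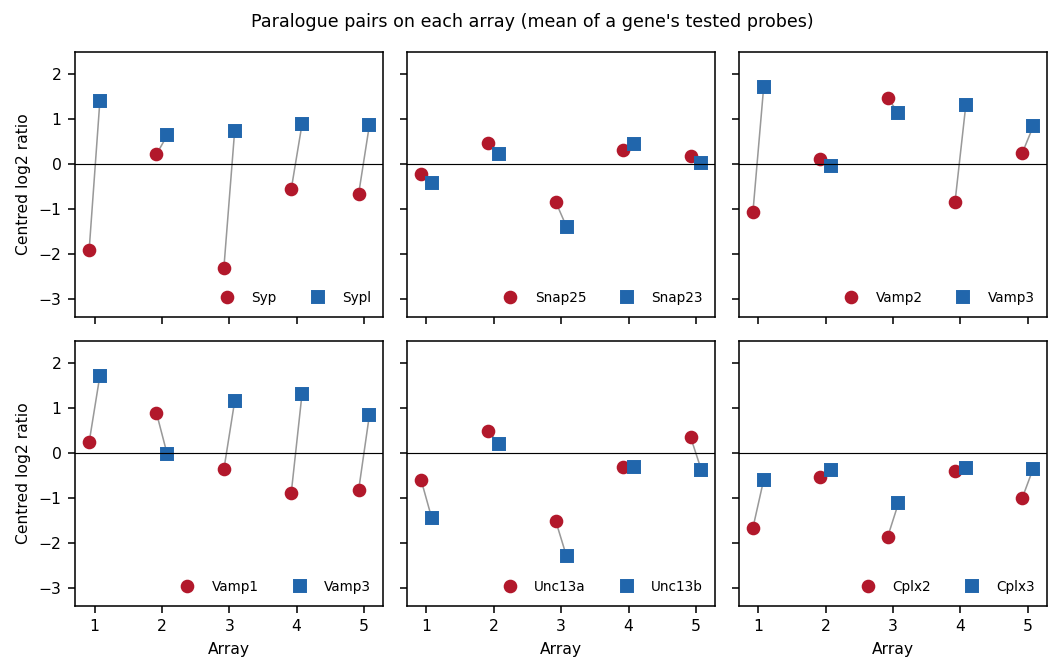
Centred log2 ratio (vertical) on each of the 5 arrays (horizontal) for 6 pairs of related members, with the first gene as a red circle and the second as a blue square joined by a line. A gene's tested probes are averaged, and Sypl lies above Syp on every array while Snap25 and Snap23 stay close together.

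Other genes of the release pathway, which the symbol rule did not take, had 0 calls in limma in each list. Over all tested probes 60.4% had a mean below 0, and 65.6% of other single-symbol probes did. At an unadjusted limma p under 0.05, 5.90% of all were negative and 5.52% positive. The shares below 0 of the endocytosis and calcium channel lists lay near these. Of 15 probes of fusion, priming and active zone partners (12 genes), 80.0% had a mean below 0, and 1 was negative and 0 positive at an unadjusted limma p under 0.05. That probe was Napa, the SNARE recycling protein alpha-SNAP, with -1.17, -0.51, -1.26, -0.34 and -0.48. Vesicle filling and other vesicle membrane genes (18 probes, 11 genes) had 77.8% of means below 0 and 3 negative and 0 positive probes. Atp6v1g2, a subunit of the proton pump that energises vesicle filling, had -1.83, -0.79, -1.23, -1.64 and -0.45 and was negative on each array. Endocytosis genes (20 probes, 13 genes) had 65.0% of means below 0, with 2 negative and 1 positive probe, the last being Pacsin2 with -0.25, 2.44, 0.98, 3.54 and 1.70. Bin1 was among the negative ones, with -1.91, -0.12, -1.75, -0.43 and -0.67. Ribbon synapse genes (10 probes, 7 genes) had 90.0% below 0 and the release calcium channels (9 probes, 6 genes) 66.7%, with 0 probes at that limit in either list. Egflam, or pikachurin, the matrix protein of the photoreceptor ribbon synapse, had -2.08, 0.15, -2.17, -0.35 and -0.34, low on arrays 1 and 3 as Stx3 and Syp were.

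By their medians, markers of rods, cones, bipolar cells, ganglion cells and neurons in general lay below all probes on arrays 1 and 3, as the members did. The medians of other cell types did not do so on both arrays, though single markers among them did. In RNA of a whole tissue, fewer cells of a type and less RNA per cell cannot be told apart, and ratios hold no level, so the presence of retina could be read only as ratios of its markers. The 23 rod probes (13 genes) lay at -3.61, 0.12, -3.58, -0.38 and -0.06 relative to all probes on arrays 1 to 5, and 21 of the 23 had a mean below 0. General neuronal genes (18 probes, 11 genes) lay at -0.82, -0.16, -0.56, -0.48 and -0.09, and genes of proliferating progenitors (21 probes, 13 genes) at 2.09, -0.07, 1.48, 0.72 and -0.00. On arrays 1 and 3 the median of the members thus lay on the side of the rod and neuronal medians and opposite to the progenitor median. Not all progenitor probes went that way, as 8 of the 21 had a mean below 0. Ccnd1 was negative on every array, with -2.18, -0.305, -1.82, -0.31 and -0.36. Cone probes (8) lay at -1.11, 0.36, -1.12, 0.39 and -0.36, bipolar probes (8) at -0.60, -0.16, -0.91, -0.61 and 0.04, and ganglion cell probes (10) at -0.62, -0.03, -1.01, -0.26 and -0.03. Amacrine and horizontal probes (16) lay between -0.12 and 0.40 and Muller glia probes (11) between -0.26 and 0.18. The Muller markers went both ways. Glul had -1.14, -0.405, -1.23, -0.22 and -1.12 and Rlbp1 -1.33, -0.25, -1.14, -0.35 and -0.79, both low on arrays 1 and 3. Sox9 had 1.14, -0.45, 1.18, 0.35 and 0.74. The lists of microglia, vessels, pigment epithelium, and astrocytes and myelin had 1 to 3 probes each and are not read. The part of these shifts in the members' ratios was not tested.

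**Figure D4:**
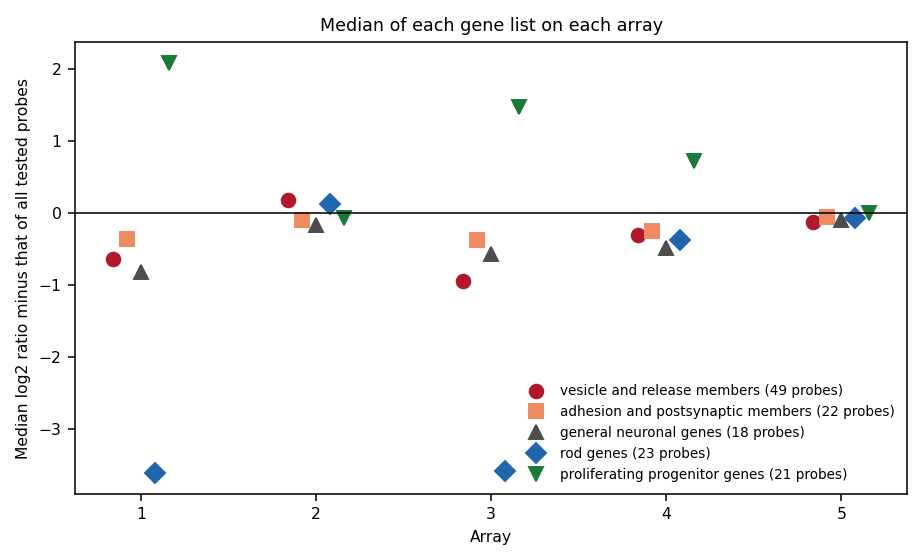
Median log2 ratio of each gene list minus that of all tested probes (vertical) on each of the 5 arrays (horizontal), for the 2 sides of the synaptic genes and for rod, general neuronal and proliferating progenitor genes. Rod genes lie at -3.61 and -3.58 and progenitor genes at 2.09 and 1.48 on arrays 1 and 3, with the synaptic genes between them on the negative side, and all lists lie between -0.16 and 0.18 on arrays 2 and 5.

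Over the 49 member probes measured on all arrays, whose points share a hybridisation, some pairs of arrays resembled each other more than over all 6753 such probes. For arrays 3 and 4 the Pearson correlation was 0.40 against 0.0621 over all probes and the Spearman correlation 0.533 against 0.110, and for arrays 1 and 4 they were 0.323 against 0.0954 and 0.408 against 0.154. The order depended on the measure for arrays 1 and 3, at 0.480 against 0.408 by Pearson and 0.387 against 0.443 by Spearman correlation. It did so too for arrays 2 and 4, at 0.626 against 0.345 and 0.284 against 0.355, and for arrays 2 and 5, at -0.166 against 0.0699 and 0.267 against 0.0788. Arrays 3 and 5 were less alike over the members by both measures, at 0.0731 against 0.197 and 0.222 against 0.272. For arrays 1 and 2 the Pearson correlation was -0.108 against -0.0605.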

How the data were processed

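The deposited log2 ratios were used. The authors made them from spots measured in GenePix Pro 4.1.1.29 and, per the labels, subtracted the local background without normalizing. Array medians ran from -0.755 to -0.025, so the ratios had not been centred. Neither how empty cells arose nor which dye marked each RNA is stated.

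A value of 16.61, which is log2 of 100000, was read as a filler and set to missing (106 to 141 cells an array), leaving ratios at 71.8% to 75.9% of spots. Each array was centred on its median, and 192 ACTB control spots were left out. After centring, the median of these controls was 1.09, -2.10, 0.715, -0.30 and 0.05 on arrays 1 to 5. The controls thus differed between arrays, with array 2 opposite in sign to arrays 1 and 3, and the cause was not tested. Probes on at least 4 of 5 arrays were tested against 0 with limma 3.58.1 under R 4.3.3 (lmFit, eBayes). P-values were adjusted by Benjamini-Hochberg over all 10036 probes, at a threshold of 0.05. The procedure was tested on simulated data with the spread of the real probes. It called 0% of the probes shifted by a log2 ratio of 1, 31% at 2 and 77.5% at 4. The lack of calls therefore does not show that no probe differed 2-fold. The number of arrays limits the precision.

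Gene names came from the platform annotation, and all 59 member symbols had a RefSeq entry. Promoters are those of RefSeq, GRCm38.p6. Named with values on every array were the 10 member probes with the smallest limma p of each sign, 34 core genes where tested (20) and members with several probes. From each other list up to 3 genes were taken by smallest p, and values are given for only some of these. Other members with values on every array, such as Snap23, Syt4, Dlg1 and Dlg3, fall outside this rule, and their choice followed a look at the values. Members, lists and alternatives were chosen with earlier results of these data known. Alternatives were other centring, scaling, filler, missing-value and variance settings, gene means, array weights, scanner focus position and leaving out arrays.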

Additional observations from a re-analysis of the deposited data

Results flagged for a closer look

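Among 57 results examined for 1 array lying apart from the rest, 2 had such an array, where chance gives 2.85. Homer2, a postsynaptic adaptor, had a log2 ratio of 0.492 on array 3 at spot 8945, against -0.08 to 0.08 on the others. Nlgn2, the neuroligin of inhibitory synapses, had -1.464 on array 3 at spot 5653, against -0.11 to 0.25 on the others.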

How the results depend on the processing

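No call appeared among the members or among all tested probes under any of the 22 alternatives, and the smallest adjusted p of a named member in limma ran from 0.218 to 0.648. The median of the members' means lay at -0.95 on the ratios as deposited, where 25 members (35.2%) and 18.3% of all probes were negative at an unadjusted limma p under 0.05, and between -0.54 and -0.35 when 1 array was left out. Relative to all tested probes it ran from -0.38 to -0.14 over every alternative. Of 54 named probes 33 kept their sign throughout, and 38 moved by over 1.5 times or turned when 1 array was left out. The mean log2 ratio of the others turned as follows, with the cause not tested. Without arrays 1 and 3 it was -0.90 for Rab3b, 0.42 for Nrxn2 (spot 2781), 0.038 for Nrxn3 (16438), 0.36 for Slc17a7, 0.32 for Snap25, 0.68 for Sv2b (2977), 0.29 for Syn2, 0.18 for Unc13a, 0.046 for Nlgn2 (5653), 0.89 for Stx7 (8820) and 0.28 for Stx8 (5551). At focus position 0 alone it was -0.90 for Rab3b, -0.67 for Camk2d (11651), 0.25 for Snap25, 0.54 for Sv2b (2977), 0.024 for Unc13a, 0.011 for Dlgap4 (4888), 0.064 for Nlgn2 (5653) and 1.52 for Stx7 (8820), and at position 10 alone 0.094 for Shank1, 0.060 for Sv2b (2710) and 0.042 for Vamp2 (14938). As deposited it was -0.13 for Vamp7 (3645), -0.12 for Rab39b (826), -0.19 for Homer3, -0.21 for Rab3b and -0.36 for Homer2 (8945). With array weights it was -0.054 for Rab3b, 0.11 for Snap25, 0.20 for Sv2b (2977) and 0.054 for Stx7 (8820). With a gene's probes averaged, Camk2d lay at -0.0051 and Homer2 at -0.20, which the averaging itself sets. Snap25 also lay at 0.15 when centred on probes measured on all arrays, 0.092 relative to all tested probes, 0.11 at a common spread, 0.092 after quantile normalization and 0.027 with focus position as a term, and Sv2b (2977) at 0.19 at a common spread. Leaving out 1 array gave -0.26 to 0.90 for Rab3b, -0.33 to 1.45 for Camk2d (11651), -0.59 to 0.088 for Nrxn2 (2781), -1.03 to 0.22 for Nrxn2 (12433), -0.57 to 0.33 for Shank1, -0.14 to 0.19 for Snap25, -0.83 to 0.045 for Sv2b (2710), -0.54 to 0.68 for Sv2b (2977), -0.83 to 0.22 for Vamp2 (14938), -1.09 to 0.0076 for Dlgap4 (4888), -0.0054 to 0.14 for Homer2 (8945), -0.33 to 0.096 for Nlgn2 (5653) and -1.83 to 0.89 for Stx7 (8820). Array 3 alone turned Rab3b, Nrxn2 (2781), Sv2b (2710), Homer2 (8945), Nlgn2 (5653) and Stx7 (8820). The 5 arrays and their spread, not a depth, limit these values, and no signal over background was used.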
